A study of Mus musculus with 18 samples.

Results

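The Ly49 receptors are encoded by the Klra genes, and 8 of them that are protein coding in C57BL/6 mice (Klra1, Klra3, Klra4, Klra5, Klra7, Klra8, Klra9 and Klra10) were picked by symbol out of 46078 genes in the count table. Each of 18 SMART-seq libraries, a method that copies and amplifies whole transcripts, was made from 200 sorted cells, with 3 libraries in each of 6 groups. The groups were spleen ILC1s, liver ILC1s and liver NK cells, each from C57BL/6 mice aged 8 weeks of the genotype Ncr1-Cre; Rosa26-RARalpha403 (called RARa403 here) or Ncr1-Cre (control). Ncr1-Cre, which all mice carried, expresses Cre recombinase under control of the gene of the receptor NKp46, so that RARa403, a truncated dominant negative retinoic acid receptor alpha, is switched on in NKp46-bearing cells. ILC1s, lymphocytes that stay in tissues and secrete interferon gamma, had been sorted as CD3-, NK1.1+, NKp46+, CD49a+, CD49b low and IL-7R+, and NK cells, the cytotoxic and circulating relatives of ILC1s, as CD3-, NK1.1+, NKp46+, CD49a- and CD49b+. No spleen NK cells were among the samples, so that organ and cell type can be compared only through spleen and liver ILC1s. Which libraries come from the same mouse, or whether mice were pooled, is not in the labels, so p-values measure the spread between these libraries.

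Ly49 proteins are lectin-like dimers on the surface of mouse NK cells, where most of them bind MHC class I molecules. Inhibitory members carry a signalling motif that recruits the phosphatase SHP-1 (Ptpn6), and activating members pair with the adaptor DAP12 (Tyrobp). In C57BL/6 mice Klra4 (Ly49D) and Klra8 (Ly49H, which recognises a glycoprotein of mouse cytomegalovirus) are the activating members. Klra1 (Ly49A), Klra3 (Ly49C), Klra5 (Ly49E), Klra7 (Ly49G), Klra9 (Ly49I) and Klra10 (Ly49J) are of the inhibitory kind. Each receptor is usually carried by some NK cells and not by others, so a bulk library averages over cells with different sets. In such libraries fewer cells with a receptor and less RNA per cell cannot be told apart.

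The libraries held 3452279 to 9038767 counts. Levels are given in CPM, counts scaled to a common library size by the TMM method, and the floor of a single library, 3 counts, lay between 0.334 and 0.860 CPM. Liver NK RARa403 replicate 1 stood apart from the rest, with a mean Pearson correlation of 0.633 with its group across genes, and 7.02% of the 2735 genes that passed 50 CPM everywhere else had 3 counts or fewer there. Rara, the gene of the receptor itself, was at 8.75 log2 CPM in that library and at 4.51 to 5.81 log2 CPM in the other 17, whatever their genotype. The transcript of the Rosa26 locus, Gt(ROSA)26Sor, was at 5.98 log2 CPM in liver ILC1 RARa403 replicate 1 and 5.83 log2 CPM in spleen ILC1 RARa403 replicate 1, but at 0.51 log2 CPM or less in the other 7 RARa403 libraries. Controls ran from 4.51 to 7.25 log2 CPM, so those replicate 1 libraries lay within their range. The sample codes in the labels open with 1 for every replicate 1 library and with 2 for the others. They end in a number that the populations of a genotype share within a replicate. What the codes stand for is not said. For the main Ly49 results, values without replicate 1 libraries are therefore given as well. The sorted cell types went with their markers. The summed level of 10 ILC1 markers was 2208 to 4345 CPM in the 12 ILC1 libraries and 180.0 to 635 CPM in the NK cell libraries. The summed level of 10 NK cell markers was 310.0 to 2078 CPM in ILC1 libraries and 3402 to 6161 CPM in NK cell libraries, and the signal of NK cell markers in ILC1 libraries is given beside the results it moves with.

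All 8 genes lie on the minus strand of chromosome 6 (mm10), and no other annotated gene overlaps them on either strand. In chromosome order they are Klra5 at chr6:129898996-129917650, Klra4 at chr6:130043731-130067271, Klra8 at chr6:130115226-130129898, Klra9 at chr6:130178675-130193112, Klra7 at chr6:130218605-130233322, Klra10 at chr6:130269194-130281928, Klra3 at chr6:130323289-130337574 and Klra1 at chr6:130363917-130386874. Their transcripts resemble each other, so the share of each gene's transcript windows found in no other annotated gene was computed. With windows of 50 bases it was 99.3% for Klra5, 97.0% for Klra1, 95.3% for Klra4, 87.7% for Klra7, 79.3% for Klra3, 68.5% for Klra9, 66.9% for Klra8 and 60.2% for Klra10. With windows of 100 bases Klra8 had the lowest share of the 8 genes at 85.6%. The longest run that Klra8 shared with another gene was 195 bases with the transcribed pseudogene Klra14-ps, whereas Klra10 and Klra3 shared 121 bases. Klra8 also shared 10.7% of its windows of 50 bases with Klra9, which control liver ILC1s held at a high level while Klra8 stood at 0 to 6 counts there. The levels of Klra8, Klra9, Klra10 and Klra3 are therefore less certain than those of Klra5, Klra1 and Klra4, because how reads that align to several genes were counted is not known here.

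**Figure D1:**
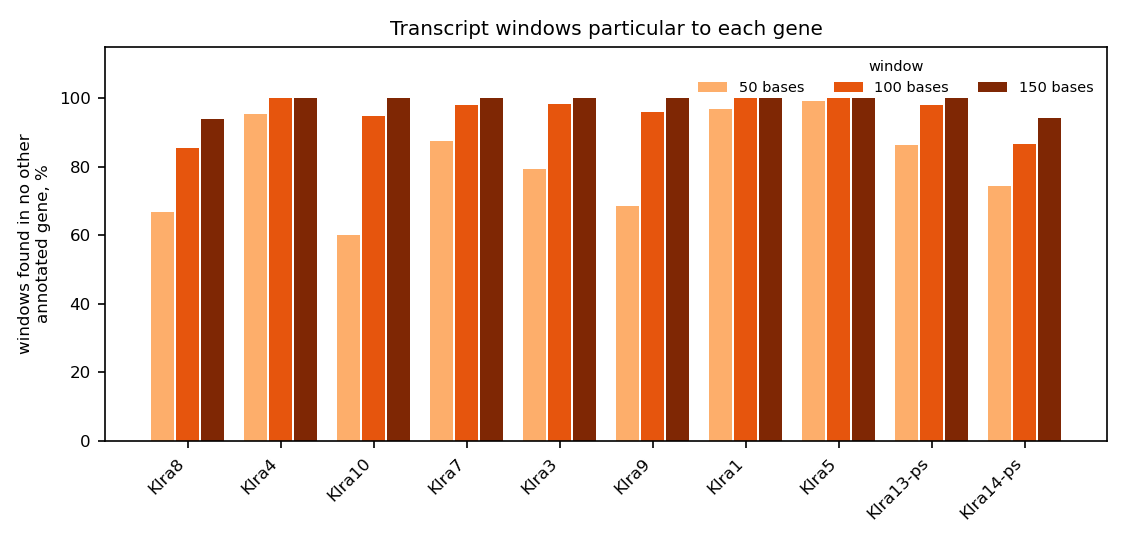
Bars give the share of transcript windows of 50, 100 or 150 bases (percent, y axis) that occur in no other annotated gene, for the 8 Ly49 genes and the pseudogenes Klra13-ps and Klra14-ps. Klra10 had the lowest share with windows of 50 bases at 60.2%, and Klra8 the lowest among the 8 genes with windows of 150 bases at 94.0%.

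The promoters of these genes were compared because the levels of Klra8 and Klra4, given further on, ran in parallel across libraries while those of Klra9 and Klra5 did not follow them. The windows come from RefSeq (GRCm38.p6) and cover 250 bases before to 50 bases after an annotated start. The run of 15 bases of the Klra8 window that the most Klra genes matched with at most 1 mismatch is GCANTTTCCTCNTTT, N being any base. It was chosen after the windows had been compared and occurs in windows of 6 of the 8 genes. In all, 12 of 32851 windows (0.03653%) hold it, 10 of them of 9 Klra genes. Klra2, Klra6 and Klra17 are the Klra genes with it beyond the 8. Overlapping windows of Klra8 hold the same stretch. The windows of Klra1 and Klra10 lack it, as does a further window of Klra7. Each line gives 95 bases on the minus strand around that run, which stands in capitals, at chr6:130129928-130130022 for Klra8, chr6:130067300-130067394 for Klra4, chr6:130233361-130233455 for Klra7, chr6:130193100-130193194 for Klra9, chr6:130337595-130337689 for Klra3 and chr6:129913264-129913358 for Klra5.
Klra8: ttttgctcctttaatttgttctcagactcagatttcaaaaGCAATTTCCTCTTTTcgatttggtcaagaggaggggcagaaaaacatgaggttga
Klra4: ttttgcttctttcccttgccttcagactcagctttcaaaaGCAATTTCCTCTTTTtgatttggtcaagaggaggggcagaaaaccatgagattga
Klra7: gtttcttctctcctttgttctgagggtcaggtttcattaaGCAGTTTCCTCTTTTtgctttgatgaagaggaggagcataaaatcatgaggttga
Klra9: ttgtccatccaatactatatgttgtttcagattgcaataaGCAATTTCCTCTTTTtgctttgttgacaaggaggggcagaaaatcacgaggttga
Klra3: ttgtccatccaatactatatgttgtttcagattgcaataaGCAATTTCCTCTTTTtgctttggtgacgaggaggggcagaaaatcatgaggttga
Klra5: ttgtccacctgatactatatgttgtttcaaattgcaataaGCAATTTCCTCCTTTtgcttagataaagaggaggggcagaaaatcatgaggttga
By identity without gaps, Klra3, Klra9 and Klra5 formed a group, Klra4 and Klra8 a pair, and Klra7 was at most 71.6% identical to any of the other 5. Klra8 and Klra4, the pair of activating receptors with parallel levels, shared 88.4% of the 95 positions. Klra9 was 96.8% identical to Klra3 and 88.4% to Klra5, but 63.2% to Klra8, and Klra3 was 90.5% identical to Klra5. Klra5 was 67.4% identical to Klra8, and Klra7 65.3%. Klra3 and Klra9, the most alike of the 6 stretches, had log2 CPM that correlated with r = 0.47 over the 18 libraries and 0.09 over the 12 ILC1 libraries. Klra10, whose window lacks the run, correlated with Klra8 at r = 0.92. A half-site of retinoic acid receptors, AGGTCA, searched on both strands, occurred in the window of Klra10 alone among the Klra genes, while 16.26% of all windows hold it. The letters TGTGGT (Runx factors) occurred in the window of Klra1 alone (16.76% of all windows), and CTTTGA (TCF and LEF factors) in windows of Klra7 and Klra6 (16% of all windows). TTCNNNGAA (STAT factors) was found in windows of Klra10, Klra7 and Klra2 (8.298% of all windows). A match describes letters in a window and does not mark a site in use. The part of the promoters in the levels was not tested.

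Of the activating receptors, Klra8 was among the most abundant Ly49 transcripts of liver NK cells and was almost missing from control liver ILC1s. It had 134, 76.2 and 236 CPM in spleen ILC1 RARa403 replicates 1, 2 and 3, against 35.2, 154 and 43.9 CPM in spleen ILC1 controls. Liver ILC1 RARa403 libraries had 402.8, 62.3 and 0.282 CPM, which are 2586, 416 and 2 counts, against 0.273, 0 and 1.301 CPM, or 2, 0 and 6 counts, in liver ILC1 controls. Liver NK RARa403 libraries had 1111, 940.2 and 1697 CPM, against 1475, 1328 and 1427 CPM in liver NK controls. The 3 liver ILC1 control libraries thus lay below every spleen ILC1 and NK cell library, and the liver ILC1 RARa403 libraries spread from the level of those controls to above every spleen ILC1 library, all below the NK cell libraries.

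Klra4, the other activating receptor, followed Klra8 closely. It had 13.3, 104 and 138 CPM in spleen ILC1 RARa403 libraries, against 11.1, 85.8 and 77.1 CPM in spleen ILC1 controls. Liver ILC1 RARa403 replicates 1, 2 and 3 had 136, 13.3 and 0 CPM, against 1.23, 0 and 0 CPM in liver ILC1 controls. Liver NK RARa403 libraries had 572, 1260.2 and 1093 CPM, against 1032, 886 and 1206 CPM in liver NK controls. The same liver ILC1 RARa403 library, replicate 3, was at the floor for both activating receptors, and replicate 1 was highest for both. Across the 18 libraries the log2 CPM of Klra4 and Klra8 correlated with r = 0.96, and across the 12 ILC1 libraries with r = 0.93. These are descriptions over libraries that share depth and amplification, and Klra4 and Klra8 themselves shared no run longer than 24 bases. Of the promoter stretches printed above, those of Klra4 and Klra8 shared 88.4% of positions, as did those of Klra5 and Klra9, whose levels correlated with r = −0.45. Whether likeness of promoters goes with likeness of levels was not tested.

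Among the inhibitory receptors, Klra7 (Ly49G) was detected in every library. It had 103, 160.5 and 273 CPM in spleen ILC1 RARa403 libraries, against 124, 351 and 216 CPM in spleen ILC1 controls. Liver ILC1 RARa403 libraries had 320.4, 5.24 and 67.9 CPM, against 94.9, 45.6 and 13.2 CPM in liver ILC1 controls. Liver NK RARa403 libraries had 373, 962 and 544 CPM, against 947, 637 and 649 CPM in liver NK controls. The liver ILC1 libraries overlapped between genotypes, with RARa403 replicate 2 the lowest and RARa403 replicate 1 the highest of the 6.

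Klra9 (Ly49I) was the Ly49 gene that control liver ILC1s kept at a high level. It had 402.8, 90.0 and 298 CPM in spleen ILC1 RARa403 libraries, against 161, 175 and 116 CPM in spleen ILC1 controls. Liver ILC1 RARa403 libraries had 388, 129 and 116 CPM, against 375, 146 and 346 CPM in liver ILC1 controls. Liver NK RARa403 libraries had 23.0, 322 and 814 CPM, against 762, 671 and 1223 CPM in liver NK controls. The value of 23.0 CPM came from the NK cell library that stood apart, and the genotypes overlapped in each population. Per kilobase of exon, Klra9 was first among the 8 genes in control liver ILC1s, with 226 ± 97.7 CPM per kb (SD, n = 3), and its lowest library did not overlap the next gene, Klra7, at 40.5 ± 32.5 CPM per kb.

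Klra3 (Ly49C) and Klra10 (Ly49J) were lower in level. Klra3 had 69.6, 19.999 and 106 CPM in spleen ILC1 RARa403 libraries and 33.8, 46.2 and 82.9 CPM in spleen ILC1 controls. It had 142, 8.99 and 14.3 CPM in liver ILC1 RARa403 libraries, against 4.91, 61.3 and 7.37 CPM in liver ILC1 controls. In NK cells it had 40.1, 130.2 and 252 CPM in RARa403 libraries, against 242, 224 and 138 CPM in controls. The genotypes overlapped in each population for Klra3. Klra10 had 31.5, 13.3 and 20.2 CPM in spleen ILC1 RARa403 libraries, against 5.32, 18.4 and 7.58 CPM in spleen ILC1 controls. It had 22.9, 8.54 and 0.282 CPM in liver ILC1 RARa403 libraries, against 0.136, 4.59 and 0 CPM in liver ILC1 controls. In NK cells it had 159, 82.3 and 111 CPM in RARa403 libraries, against 134, 79.9 and 139 CPM in controls. As for the activating receptors, liver ILC1 RARa403 replicate 3 was at the level of the controls for Klra10 and replicate 1 was the highest of the liver ILC1 libraries.

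Klra1 (Ly49A) had 94.2, 118 and 44.0 CPM in spleen ILC1 RARa403 libraries, against 32.0, 86.9 and 78.8 CPM in spleen ILC1 controls. It had 92.2, 12.3 and 44.5 CPM in liver ILC1 RARa403 libraries, against 0, 29.2 and 15.8 CPM in liver ILC1 controls. In NK cells it had 0, 453 and 124 CPM in RARa403 libraries, against 196, 57.8 and 159 CPM in controls. Values of 0 thus occurred in 2 libraries, and the NK cell library with 0 was the same one that stood apart. Klra5 (Ly49E), known as a receptor of fetal NK cells in mice, had the smallest differences between the control populations of the 8 genes. It had 22.7, 99.996 and 18.9 CPM in spleen ILC1 RARa403 libraries, against 18.5, 9.55 and 32.8 CPM in spleen ILC1 controls. It had 36.9, 116 and 47.1 CPM in liver ILC1 RARa403 libraries, against 8.996, 21.5 and 50.3 CPM in liver ILC1 controls. In NK cells it had 69.4, 41.5 and 16.2 CPM in RARa403 libraries, against 5.91, 12.9 and 64.8 CPM in controls. Its 2 highest values belonged to RARa403 replicate 2 of both ILC1 populations.

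**Figure D2:**
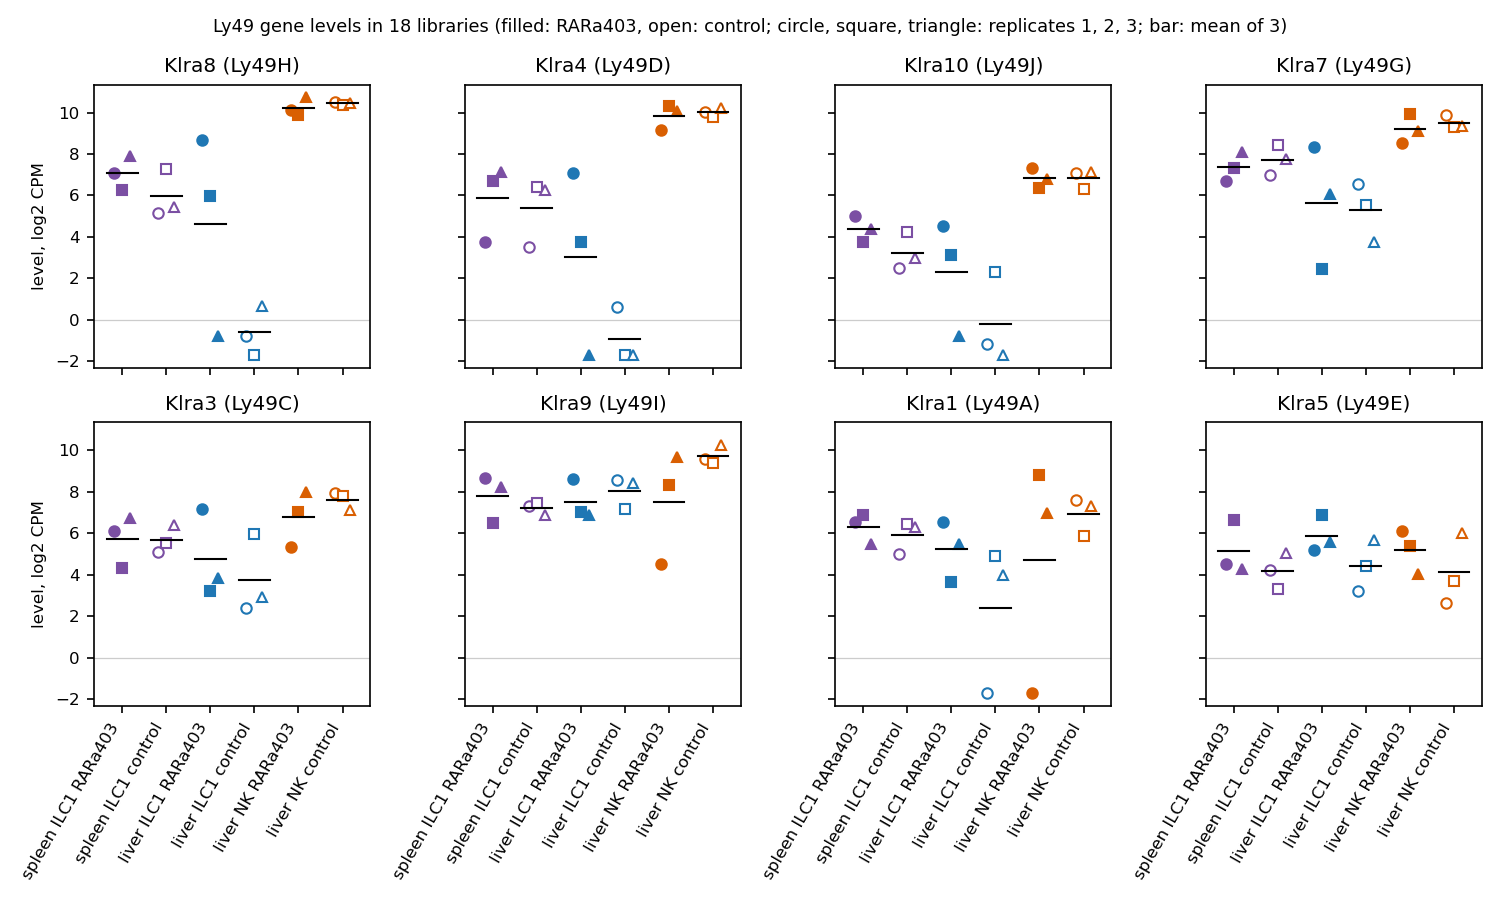
Points are single libraries, with the level in log2 CPM on the y axis and the 6 groups side by side for each of the 8 Ly49 genes. Klra8 and Klra4 ran from the floor in control liver ILC1s to 10.73 and 10.30 log2 CPM in NK cell libraries, while Klra5 lay between 2.64 and 6.87 log2 CPM in all groups.

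The order of the groups by mean log2 CPM was shared by 4 genes at its top. For Klra8, Klra4, Klra10 and Klra7 both NK cell groups came first, overlapped each other and did not overlap the group below them. For Klra8 the means were 7.07 ± 0.81 in spleen ILC1 RARa403 and 5.96 ± 1.15 in spleen ILC1 control libraries, 4.62 ± 4.85 in liver ILC1 RARa403 and −0.60 ± 1.21 in liver ILC1 control libraries, and 10.24 ± 0.44 in liver NK RARa403 and 10.46 ± 0.08 in liver NK control libraries (log2 CPM, SD, n = 3 each). All other neighbours in the order of these 4 genes overlapped. For Klra3, Klra1 and Klra5 every pair of neighbours overlapped, and for Klra9 only liver NK controls stood clear of the group that followed them, which was liver ILC1 controls. Control liver ILC1s were lowest for 6 genes, control spleen ILC1s for Klra9 and control liver NK cells for Klra5.

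Together the 8 genes held less of the RNA of ILC1s than of NK cells. Their summed level was 871, 682 and 1134 CPM in spleen ILC1 RARa403 libraries, against 421, 927 and 655 CPM in spleen ILC1 controls. It was 1541, 356 and 290.2 CPM in liver ILC1 RARa403 libraries, against 485, 308 and 434 CPM in liver ILC1 controls. NK cell libraries had 2347, 4191 and 4652 CPM in RARa403 cells, against 4794, 3897 and 5006 CPM in controls. The sum is a description with no test of its own, and unlike single members it does not depend on how reads were divided among the 8, though it does on reads left out or given to pseudogenes. All ILC1 libraries lay below all NK cell libraries, and the genotypes overlapped in each population.

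The mix of receptors is described by the share each gene held of the summed level per kilobase of exon, again with no test. Klra9 held on average 25.0% of the Ly49 signal in control spleen ILC1s, 68.8% in control liver ILC1s and 18.4% in control liver NK cells. The activating genes Klra8 and Klra4 held 11.5% and 8.14% in control spleen ILC1s, 0.131% and 0.0864% in control liver ILC1s, and 32.4% and 22.5% in control NK cells. Klra7 held 33.9% on average in control spleen ILC1s, against 12.7% in control liver ILC1s, although Klra9 led in control spleen replicate 1 with 38.4%, against 30.0% for Klra7. The 3 control NK cell libraries were alike, with Klra8 between 29.8% and 35.4%. Liver ILC1 RARa403 libraries were not: Klra8 held 27.8%, 19.1% and 0.1% there, and Klra5 held 2.1%, 30.1% and 15.7%.

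**Figure D3:**
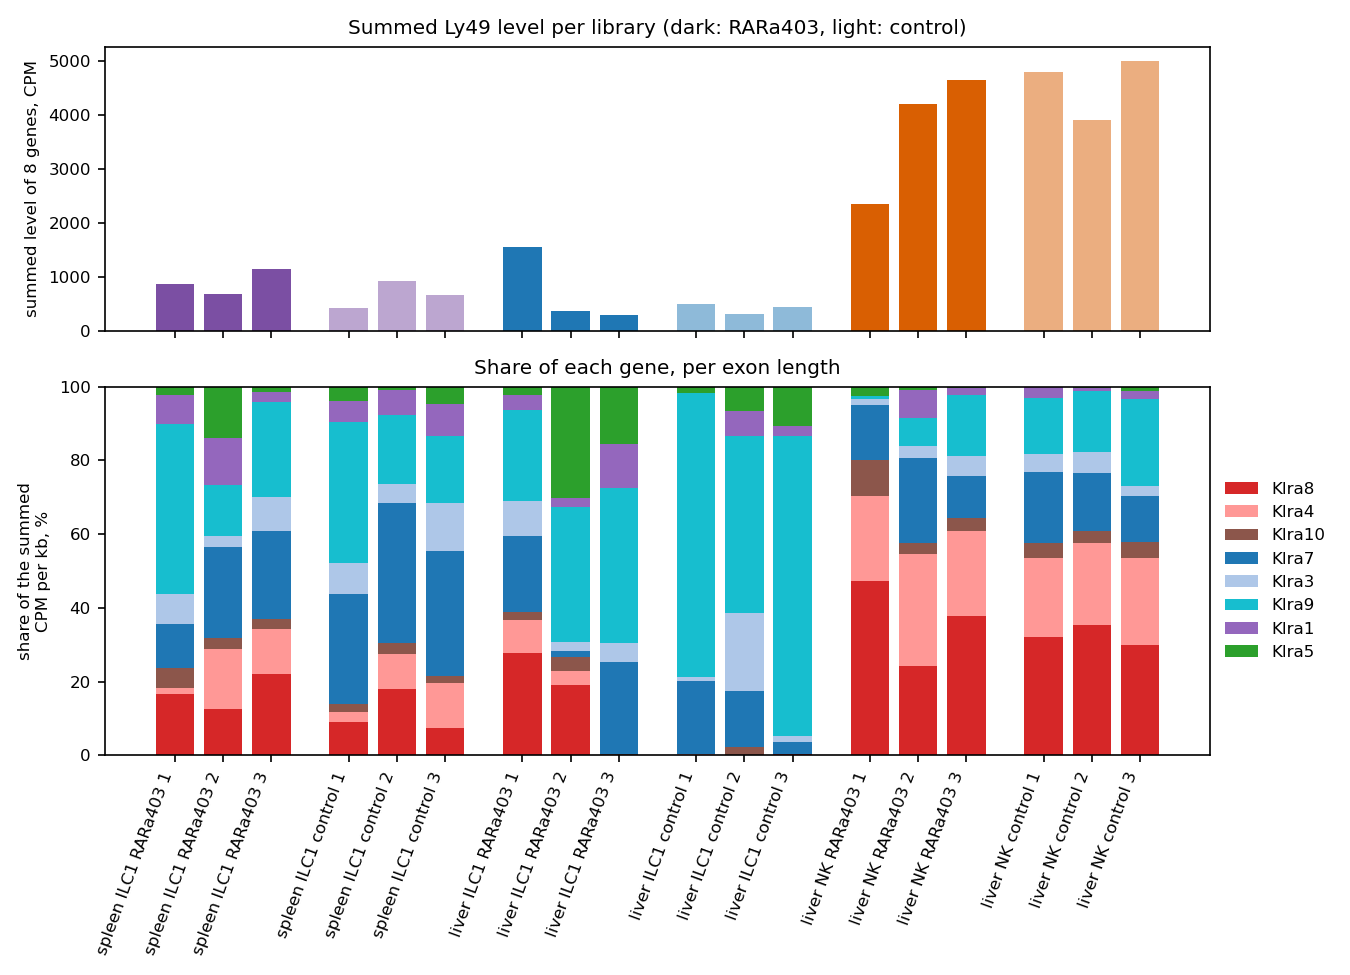
Each bar is a library, divided by the share (percent, y axis) that each of the 8 Ly49 genes held of their summed CPM per kb. Klra9 filled 48.0% to 81.2% of the bar in control liver ILC1 libraries, while Klra8 and Klra4 together with Klra7 and Klra9 filled most of it in NK cell libraries.

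In control mice, liver ILC1s had less of most Ly49 transcripts than liver NK cells. Klra8, Klra4 and Klra10 were lower by the test, 3 of the 8 genes, where 0.177% of the 14714 genes tested were called lower (edgeR's quasi-likelihood test, Benjamini-Hochberg adjusted p under 0.05). The log2 fold change was −11.33 for Klra8 (SE 1.82, adjusted p = 0.0113), −10.91 for Klra4 (SE 1.98, adjusted p = 0.0172) and −6.36 for Klra10 (SE 1.37, adjusted p = 0.0461). Folds this large rest on 0 to 9 counts per liver ILC1 library for Klra8 and Klra4 and depend on how such counts are fitted. Modelling the replicate number within each genotype as a block ended all 3 calls, with the adjusted p-values given in the closing section. With that block 29 genes were called in either direction, against 89 in the main fit, which left same-numbered libraries unpaired. The groups did not overlap for 7 of the 8 genes, all but Klra5, where 8.2% of the genes tested were lower with no overlap. Fold changes that did not pass were −3.86 for Klra7 (adjusted p = 0.135), −3.21 for Klra1 (0.642), −3.05 for Klra3 (0.424), −1.62 for Klra9 (0.671) and −0.05 for Klra5 (1). Across 12 alternative settings Klra8 was called in 10, Klra4 in 6, Klra10 in 5 and Klra7 in 2. Klra1, Klra3 and Klra9 were called in 1 each, and Klra5 in 0. The median log2 fold change of the 8 genes was −3.53, beside 0.03 over all genes tested. Without replicate 1 in all groups Klra8 (−10.87, adjusted p = 0.0244) and Klra4 (adjusted p = 0.00673) stayed under the threshold and Klra10 did not (−5.70, adjusted p = 0.0748). The Klra4 fold of that fit, −15.75, has no usable size because both remaining liver ILC1 control libraries are at 0. Leaving out single libraries ended the call of Klra8 without liver ILC1 control replicate 1 (adjusted p = 0.0625). Klra4 lost it without any 1 of the liver ILC1 control libraries (0.0766, 0.0815 and 0.112) or without liver NK control replicate 1 or 3 (0.0601 and 0.0661). Klra10 lost it without liver ILC1 control replicate 1 or 3 (0.211 and 0.201) or without any 1 of the NK control libraries (0.139, 0.0978 and 0.140).

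NK cell markers moved with these genes and are set beside them. Whether the sum of these markers measures NK cells in the sort was not tested. Their summed level was 578, 751 and 310.0 CPM in control liver ILC1s, against 5616, 5207 and 6161 CPM in control NK cells. Of the 10 markers, Cma1 was at 0 in 2 of the 3 control liver ILC1 libraries, and 4 of the 10 were called lower than in NK cells. Per 100 CPM of these markers, Klra8 had 0.0472, 0 and 0.420 CPM in control liver ILC1s, against 26.3, 25.5 and 23.2 CPM in control NK cells. Klra7 by contrast had 16.4, 6.07 and 4.27 CPM per 100 CPM of the markers in control liver ILC1s, against 16.9, 12.2 and 10.5 CPM in control NK cells. The part of the markers in the Klra7 difference was not tested.

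Control spleen ILC1s had mean levels of Klra8, Klra4, Klra10 and Klra7 between those of control liver ILC1s and control NK cells. The main edgeR fit called no Ly49 gene against either. Against control liver NK cells, 0 of the 8 genes passed, where 0.313% of all genes did, and the log2 fold change was −4.18 for Klra8 (SE 1.28, adjusted p = 0.351), −4.17 for Klra4 (SE 1.41, adjusted p = 0.473) and −3.49 for Klra10 (adjusted p = 0.446). Spleen ILC1s lay below NK cells with no overlap for 6 of the 8 genes, all but Klra1 and Klra5, where 6.89% of the genes tested did. Klra9 (−2.55, adjusted p = 0.464) was the gene that became called when liver NK RARa403 replicate 1 was left out of the shared fit (adjusted p = 0.0449). DESeq2, which called 341 genes against NK cells, and the fit without the filter on low counts, which called 316, both called Klra8 lower. Of 12 alternative settings, Klra9 was called in 2, Klra4, Klra10, Klra7 and Klra3 in 1 each, and Klra1 and Klra5 in 0. The median of the 8 genes was −2.22, beside 0.06 over all genes.

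Against control liver ILC1s, control spleen ILC1s had higher values of the activating receptors. Klra8 differed by a log2 fold change of 7.15 (SE 1.62) and had the smallest p of all 14714 genes, and Klra4 differed by 6.75 (SE 1.75) with the 8th smallest, yet the adjusted p of both was 1. No gene was called by the main edgeR fit in this comparison (0% of those tested), and 468 genes (3.18%) had an unadjusted p under 0.05. DESeq2 called 38 genes, with Klra8 (adjusted p = 3.74e-05) and Klra4 (adjusted p = 0.00170) among them. The fit without the filter on low counts called 78 genes. Across 12 alternative settings Klra8 and Klra4 were called in 2 each, Klra7, Klra10 and Klra1 in 1 each, and Klra3, Klra5 and Klra9 in 0. Spleen ILC1s lay above liver ILC1s with no overlap for 5 of the 8 genes (Klra4, Klra8, Klra7, Klra10 and Klra1), where 4.82% of the genes tested did. Klra9 went the other way, with a log2 fold change of −0.94 (adjusted p = 1). NK cell markers were also higher in control spleen ILC1s, with 744, 2049 and 1420 CPM, against 578, 751 and 310.0 CPM in control liver ILC1s. Per 100 CPM of these markers, Klra8 had 4.72, 7.53 and 3.09 CPM in control spleen ILC1s, which is above the 0 to 0.420 CPM of control liver ILC1s and below the 23.2 to 26.3 CPM of control NK cells. The part of the markers in the difference was not tested.

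In RARa403 mice the main edgeR fit called no Ly49 gene between populations. Between liver ILC1s and liver NK cells 0 of the 8 genes was called, where 0.401% of all genes were. The log2 fold change was −4.29 for Klra4 (SE 1.42, adjusted p = 0.231), −3.47 for Klra10 (SE 1.16, adjusted p = 0.238) and −3.01 for Klra8 (SE 1.21, adjusted p = 0.323). Klra4, Klra8, Klra7 and Klra10 lay lower in liver ILC1s with no overlap, where 4.71% of the genes tested did. Without replicate 1 in all groups Klra4 was called (−7.48, adjusted p = 0.0131), and Klra8 had −5.41 (adjusted p = 0.126). DESeq2, which called 594 genes here, and the fit without the filter on low counts, which called 794, both called Klra4 and Klra10 lower. Of 11 alternative settings, Klra8, Klra7 and Klra1 were called in 1 each, and Klra3, Klra5 and Klra9 in 0. Between spleen and liver ILC1s of RARa403 mice edgeR called no gene of 14714 (0%), 419 (2.85%) had an unadjusted p under 0.05, and DESeq2 called 41. There 0 of the 8 genes lay apart, where 4.24% of all genes were higher and 4.72% lower in spleen with no overlap. The log2 fold change of Klra8 in that comparison was −0.06 (adjusted p = 1), and 2.35 (adjusted p = 0.892) without replicate 1.

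**Figure D4:**
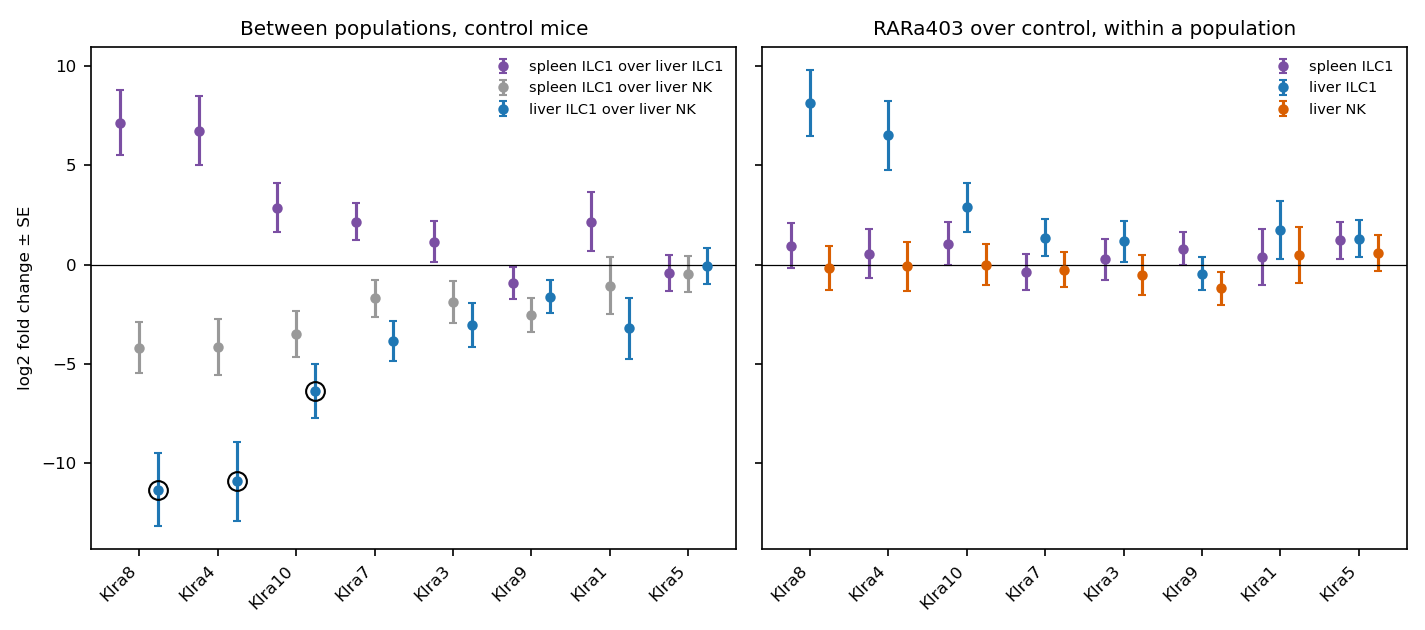
Points are log2 fold changes with bars of 1 SE for each Ly49 gene, between populations and between RARa403 and control cells of each population. Klra8, Klra4 and Klra10 lay farthest below 0 for liver ILC1s against NK cells of control mice, and in RARa403 against control cells Klra8 at 8.15 and Klra4 at 6.53 in liver ILC1s were farthest from 0.

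RARa403 liver ILC1s had higher mean levels of Klra8 and Klra4 than controls, but the libraries disagreed. Klra8 differed by a log2 fold change of 8.15 (SE 1.66), again with the smallest p of all genes, and Klra4 by 6.53 (SE 1.74) with the 8th smallest, both with an adjusted p of 1. Klra10 differed by 2.89 (SE 1.23, adjusted p = 1). No gene was called by the main edgeR fit (0% of 14714, 0 of the 8 genes), and 432 genes (2.94%) had an unadjusted p under 0.05. DESeq2 called 38, with Klra8 (adjusted p = 5.07e-07) and Klra4 (adjusted p = 0.00357) among them. The value rested on replicates 1 and 2, since replicate 3 had 2 counts of Klra8, 0 of Klra4 and 2 of Klra10. With replicate 3 left out, Klra8 was called (8.73, adjusted p = 0.00678). The fit without the filter on low counts called 43 genes. Across 12 alternative settings Klra8 was called in 3, Klra4 in 2 and Klra10 in 1. Klra1, Klra3, Klra5, Klra7 and Klra9 were called in 0. Without liver ILC1 RARa403 replicate 1, the library that kept the Rosa26 transcript, the fold changes were 5.84 for Klra8, 3.64 for Klra4 and 1.62 for Klra10 (adjusted p = 1 for each). With replicate 1 left out in all groups Klra8 had 5.37 (adjusted p = 1), and Klra4 has no usable fold there because both remaining controls are at 0. The groups overlapped for all 8 genes, where 5.08% of all genes were higher and 4.43% lower with no overlap, and the median of the 8 was 1.55, beside 0.00 over all genes.

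The NK cell markers differed between these libraries too. Their sum was 2078, 348 and 1036 CPM in liver ILC1 RARa403 replicates 1, 2 and 3, against 578, 751 and 310.0 CPM in controls, while the sum of ILC1 markers was 2637, 3968 and 4295 CPM, against 4226, 3557 and 4333 CPM in controls. Replicate 1 had both the most NK cell markers and the most Klra8. In replicate 2 the marker sum lay within the range of the controls, and Klra8 was at 62.3 CPM, against at most 1.301 CPM in controls. Replicate 3 had more of the markers than any control library and 0.282 CPM of Klra8. Per 100 CPM of the markers Klra8 came to 19.4, 17.9 and 0.0272 CPM in replicates 1, 2 and 3. These ratios are descriptions, and the part of NK cells or their markers in the difference was not tested.

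**Figure D5:**
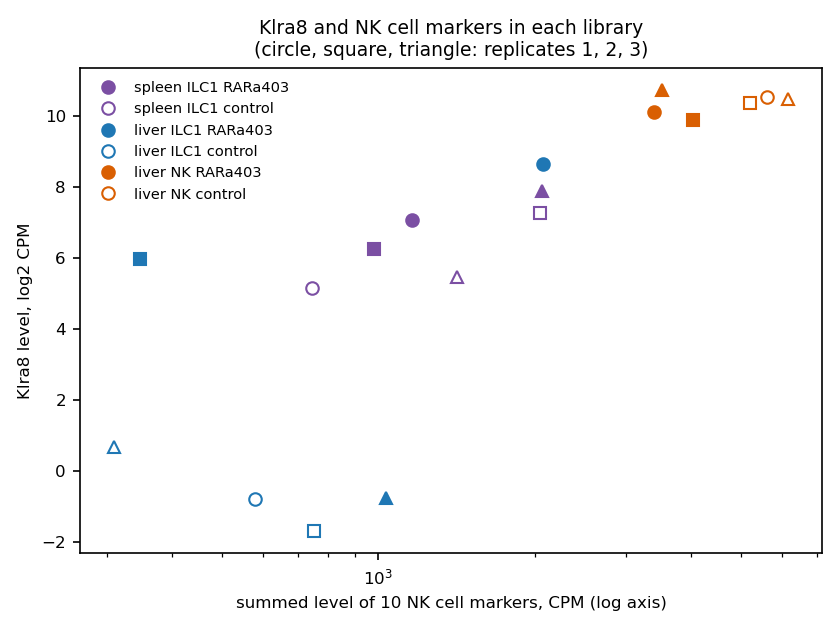
Each symbol is a library, with the summed level of 10 NK cell markers (CPM, log axis) on the x axis and the level of Klra8 (log2 CPM) on the y axis. Liver ILC1 RARa403 replicate 2 had 5.97 log2 CPM of Klra8 at 348 CPM of markers, while replicate 3 had −0.76 log2 CPM at 1036 CPM of markers.

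In liver NK cells and spleen ILC1s edgeR called no Ly49 gene between genotypes. In liver NK cells the log2 fold change of RARa403 against control ran from −1.20 for Klra9 (adjusted p = 0.707) to 0.61 for Klra5 (adjusted p = 0.890), and the library that stood apart held the lowest value of Klra9, Klra1, Klra4, Klra7 and Klra3 in its group. Without replicate 1 in all groups Klra9 had −0.76 (adjusted p = 0.942) and Klra1 1.39 (adjusted p = 0.884). In spleen ILC1s the fold changes ran from −0.37 for Klra7 to 1.22 for Klra5, and from −0.39 for Klra7 to 1.48 for Klra5 without replicate 1 in all groups, with an adjusted p of 1 throughout. In both populations 0 of 14714 genes were called by edgeR (0%). In NK cells and spleen ILC1s 1418 (9.64%) and 425 (2.89%) genes had an unadjusted p under 0.05, and DESeq2 called 163 and 25. The groups overlapped for all 8 genes in both, where 3.77% of all genes were higher and 4.72% lower with no overlap in NK cells, and 4.12% higher and 4.87% lower in spleen ILC1s. Klra5 had a positive fold change in all 3 populations (1.22 in spleen ILC1s, 1.31 in liver ILC1s and 0.61 in NK cells), none of which passed. Single libraries carried these values: without RARa403 replicate 2 they were 0.039 in spleen ILC1s and 0.64 in liver ILC1s, and without RARa403 replicate 1 that in NK cells was 0.033. Without replicate 1 in all groups it was −0.44 in NK cells.

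The RARa403 effect on Klra8 was 8.32 log2 units larger in liver ILC1s than in liver NK cells (SE 1.96, adjusted p = 0.798), and 7.21 log2 units smaller in spleen ILC1s than in liver ILC1s (−7.21, SE 1.94, adjusted p = 1). Neither difference passed, and 0 of 14714 genes did in either test (0%), with 913 (6.2%) and 397 (2.7%) at an unadjusted p under 0.05. DESeq2 called 56 genes in the first and 22 in the second, with Klra8 in both (adjusted p = 0.000946 and 0.0359). Without liver ILC1 RARa403 replicate 3 the first difference was called by edgeR for Klra8 (8.91, adjusted p = 0.0388). For Klra4 the differences were 6.62 and −5.97. Without liver ILC1 RARa403 replicate 1 they were 6.02 and −4.91 for Klra8 and 3.73 and −3.08 for Klra4, none of them called. These tests share the liver ILC1 libraries with each other and with the comparison within liver ILC1s.

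The other Klra genes of the table were 6, of which 4 passed the filter on low counts. Klra13-ps, a transcribed pseudogene between Klra10 and Klra3 at chr6:130290878-130306428, had more counts than any of the 8 genes in NK cells, with 2088, 1911 and 3044 CPM in RARa403 libraries, against 2164, 1677 and 2907 CPM in controls. It made up 2.47% to 21.1% of all Klra signal in control liver ILC1s and 28.4% to 34.9% in control NK cells. In spleen ILC1s it had 778, 318 and 595 CPM in RARa403 libraries, against 9.54, 399.6 and 283 CPM in controls. It shared runs of up to 122 bases with Klra7. Klra14-ps, next to Klra8, was the only one of the 4 called in any comparison. It was lower in control liver ILC1s than in control NK cells by −4.42 (SE 0.74, adjusted p = 0.0116), with 9.13, 26.4 and 14.958 CPM in control liver ILC1s, against 363, 304 and 404 CPM in control NK cells. Klra14-ps shared 20.7% of its windows of 50 bases with Klra8, yet it was detected in the liver ILC1 libraries in which Klra8 was at 0 to 6 counts. Klra6 reached 34.9 CPM and Klra11-ps 13.8 CPM at most, both in NK cells. Klra2 and Klra17 did not pass the filter.

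Across the 18 libraries the log2 CPM of Klra8 correlated with that of Klra10 (r = 0.92), Klra3 (0.74) and Klra7 (0.70), while Klra5 correlated with the other 7 genes at r between −0.45 and −0.03. Since NK cells and ILC1s form separate clusters, the same was computed in the 12 ILC1 libraries alone, where Klra8 correlated with Klra10 at 0.85, Klra3 at 0.58 and Klra7 at 0.45. Among 9419 other genes whose highest group reached 3 log2 CPM on average, those closest in pattern to Klra8 were Nrarp (r = 0.93 over 18 libraries, 0.89 over the ILC1 libraries), a target and regulator of Notch signalling, Zeb2 (0.89 and 0.78), a transcription factor of NK cell maturation, and Gramd4 (0.89 and 0.84). Among the closest to Klra7 were S1pr5 (0.95 and 0.96), a sphingosine-1-phosphate receptor used in egress from tissue, and Wdr95 (0.88 and 0.82). Closest to Klra5 were Slain2 (0.81 and 0.84), Coq8a (0.76 and 0.76) and Dnajc7 (0.73 and 0.69). S1pr5 and Zeb2 are also in the NK cell marker list, and all these patterns are descriptions over libraries of shared cell types and depth.

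Few of the genes that Ly49 receptors work with were called. Of 18 adaptors and signalling molecules, 1 was called in control liver ILC1s against control NK cells and 0 in control spleen ILC1s, and 1 in RARa403 liver ILC1s against RARa403 NK cells. In both cases it was Plcg1, a phospholipase C, which was higher in ILC1s (3.85, adjusted p = 0.0113 in controls, and 9.65, adjusted p = 0.000124 in RARa403 cells). The median of the 18 was −0.07 in control liver ILC1s against NK cells, beside 0.03 over all genes. In RARa403 against control NK cells Plcg1 had −5.62 (adjusted p = 0.0788). Of 6 genes of MHC class I molecules and their loading, the ligands of many Ly49 receptors, 0 were called in any of the 10 comparisons. The smallest p in control liver ILC1s against NK cells belonged to the peptide transporter gene Tap1 (0.63, adjusted p = 0.548) and to B2m, the light chain (0.72, adjusted p = 0.597).

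Of 23 transcription factors tied to NK cell maturation or to Ly49 genes, 1 was higher and 3 were lower in control liver ILC1s than in control NK cells. Zfp683, which encodes Hobit, was higher (8.39, adjusted p = 0.00426), and Irf8 (−2.35, adjusted p = 0.0212) and Eomes (−5.42, adjusted p = 0.0277), both tied to NK cells, were lower. In control spleen ILC1s against NK cells Zfp683 was higher (7.06, adjusted p = 0.0130) and Irf8 lower (−2.46, adjusted p = 0.0230), and the other 21 factors did not pass. In RARa403 liver ILC1s against RARa403 NK cells the same 2 genes passed, Zfp683 (5.17, adjusted p = 0.0358) and Irf8 (−2.32, adjusted p = 0.0267). None of the 23 was called between genotypes or between spleen and liver ILC1s. Eomes had a log2 fold change of 2.37 in RARa403 against control liver ILC1s and 2.82 in control spleen against control liver ILC1s, both with an adjusted p of 1. Of the lists for other cells, 2 of 10 T cell markers (Trbc2 and Cd3e) were higher in ILC1s than in NK cells in each of the 3 comparisons between them. No marker of B cells (6 tested), myeloid cells (6), plasmacytoid dendritic cells (4) or hepatocytes (4) was called in any comparison. The sum of the B cell markers was 336, 626 and 2571 CPM in control spleen ILC1s, against 417, 477 and 784 CPM in control liver ILC1s and 237, 222 and 213 CPM in control NK cells. Their median log2 fold change was 7.90 in control spleen ILC1s against control NK cells and 5.34 against control liver ILC1s. Myeloid markers had medians of 7.70 and 9.61 in control liver and spleen ILC1s against control NK cells, with sums of 261 to 682 CPM in control spleen ILC1s, 342 to 552 CPM in control liver ILC1s and 192 to 325 CPM in control NK cells. The part of these cells in the Ly49 results was not tested.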

How the data were processed

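The deposited table holds raw counts per gene. Per the submitters' processing notes, the authors used fastp 0.23.0, HISAT2 2.1.0 and featureCounts of Subread 1.6.5 with the mouse build mm10. Which annotation, strand option and rule for multiply aligned reads they chose was not stated in the labels used. Groups came from the labels of genotype, tissue and cell type. Counts of all 18 libraries were fitted in R 4.3.3 with edgeR 4.0.16 (limma 3.58.1 loaded): a filter with a minimum count of 10 kept 14714 genes, TMM scaled the libraries, and 1 quasi-likelihood model with a term per group gave each contrast. P-values were adjusted by the Benjamini-Hochberg method over all 14714 genes, with a threshold of 0.05. Log2 CPM used a prior count of 2. CPM per kb used the exon length of each gene in the mm10 annotation. The fits were also run on simulated data with known changes, but the share recovered is not given here, so their power is not stated.

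Every Ly49 gene was reported, other Klra genes were named where tested, and from each further list at most 3 called genes were named, or at most 2 of lowest p where none was called. For Klra8, Klra7 and Klra5 the 3 other genes of highest Pearson correlation were named, except 1 that is not reported here. The members and lists were chosen with earlier results of these data known. Alternatives were RLE scaling, no filter on low counts, DESeq2 1.42.0, a replicate block, each library left out in turn and, added after seeing the data, replicates 2 and 3 only. The block was the replicate number for RARa403 against control within a population, and the replicate number within each genotype for all other contrasts. Promoters and their coordinates are from RefSeq tables of GRCm38.p6; the element they share was chosen after they had been compared. Library totals of 3452279 to 9038767 counts set the floor of 0.334 to 0.860 CPM for 3 counts, which covers counting error only.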

Additional observations from a re-analysis of the deposited data

How the results depend on the processing

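Depth limits the lowest genes: liver ILC1 controls had 7 of 24 Ly49 values at 3 counts or fewer. Of 400 Ly49 values under other settings, 338 kept their direction and side of the threshold, 38 newly passed it, 4 no longer did and 20 reversed; with a library left out it was 578, 3, 11 and 40 of 632. The cause was not tested for any of them.

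Numbers of genes called follow for control liver ILC1s against NK cells, control spleen ILC1s against NK cells, control spleen against liver ILC1s, RARa403 liver ILC1s against NK cells, RARa403 spleen against liver ILC1s, RARa403 against control in liver ILC1s, NK cells and spleen ILC1s, and the RARa403 effect in liver ILC1s minus NK cells and in spleen minus liver ILC1s. The main numbers were 89, 46 and 59 where ILC1s were set against NK cells and 0 in the other 7. Without the filter on low counts they were 355, 316, 78, 794, 41, 43, 523, 32, 268 and 41. With DESeq2 they were 431, 341, 38, 594, 41, 38, 163, 25, 56 and 22. With replicates 2 and 3 only they were 221, 55, 0, 162, 0, 1, 2, 1, 0 and 0. Leaving out single libraries gave 18 to 290, 7 to 154, 0 to 1, 18 to 254, 0, 0 to 1, 0 to 2, 0, 0 to 1 and 0.

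Same-numbered libraries deviated together with r of 0.0163 to 0.124 between populations of a genotype and −0.033 to 0.245 between genotypes. The main fit did not pair them, because the labels do not say what the sample codes mark. Between populations of a genotype a library correlated best with its own number in 35 of 36 cases, and between genotypes in 8 of 18. Populations of a genotype also share code numbers. Libraries of a genotype may thus be paired across populations, which the main fit ignored. The replicate block called 29, 13 and 16 genes in the comparisons of ILC1s with NK cells and 0 elsewhere; with it Klra8 (adjusted p = 0.0519), Klra4 (0.106) and Klra10 (0.0797) lay above the threshold in control liver ILC1s against NK cells. Under the block 4 signs turned: Klra5 had 0.27 and 0.12 in control liver and spleen ILC1s against NK cells, Klra8 0.45 in RARa403 spleen against liver ILC1s and Klra1 −0.092 in RARa403 against control NK cells.

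Klra10 in RARa403 against control NK cells was 0.067 with RLE scaling and DESeq2 and 0.026 without the filter. With replicates 2 and 3 only, Klra3 was −1.54 in RARa403 against control liver ILC1s, and in NK cells Klra3 was 0.057, Klra4 0.15, Klra5 −0.44 and Klra7 0.21. Klra1 was −0.048 and Klra3 −0.037 in RARa403 against control spleen ILC1s, and Klra8 was 2.35 in RARa403 spleen against liver ILC1s. For the RARa403 effect in liver ILC1s minus NK cells Klra1 was −1.05, Klra3 −1.60 and Klra9 −0.25, and in spleen minus liver ILC1s Klra3 was 1.51 and Klra5 0.30.

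These values crossed 0 when single libraries were left out. In control liver ILC1s against NK cells, Klra5 ran −0.88 to 1.51. In control spleen ILC1s against NK cells, Klra5 ran −0.99 to 1.09. In control spleen against liver ILC1s, Klra5 ran −0.94 to 0.41. In RARa403 liver ILC1s against NK cells, Klra5 ran −0.0095 to 1.22, Klra9 ran −1.66 to 0.28. In RARa403 spleen against liver ILC1s, Klra3 ran −0.30 to 2.48, Klra5 ran −1.69 to 0.17, Klra7 ran −0.12 to 2.28, Klra8 ran −0.64 to 2.25, Klra9 ran −0.11 to 1.10. In RARa403 against control liver ILC1s, Klra3 ran −1.06 to 3.17, Klra7 ran −0.48 to 2.16. In RARa403 against control NK cells, Klra1 ran −1.16 to 1.06, Klra10 ran −0.30 to 0.20, Klra4 ran −0.33 to 0.16, Klra7 ran −0.70 to 0.0075. In RARa403 against control spleen ILC1s, Klra3 ran −0.28 to 0.70, Klra7 ran −0.81 to 0.076. In the RARa403 effect in liver ILC1s minus NK cells, Klra3 ran −0.54 to 3.68, Klra5 ran −0.85 to 1.54, Klra7 ran −0.23 to 2.41, Klra9 ran −0.038 to 1.90. In the RARa403 effect in spleen minus liver ILC1s, Klra3 ran −2.90 to 1.32, Klra5 ran −1.28 to 0.58, Klra7 ran −2.52 to 0.12.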
